A study of Mus musculus with 2 samples.

Results

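Notch signalling was examined in developing skeletal muscle through 10 genes, namely the receptors Notch1, Notch2 and Notch3, the ligands Dll1, Dll4, Jag1 and Jag2, and the target genes Hes1, Hey1 and Heyl. These 10 of 21938 protein-coding genes were chosen by name, as receptors, ligands and targets of the pathway, and not by their values. DNase-seq, which reads open chromatin as sites cut by the enzyme DNase I, was measured in whole gastrocnemius, a hindlimb calf muscle. The single group held female B6CASTF1/J mice, an F1 hybrid strain, aged 10 days and without treatment or engineered allele in the labels. It consists of 2 libraries labelled biological replicates 1 and 2, each described as a pool of 3 females, so the spread between single animals was not measured and no contrast of conditions exists. Every value below is therefore given for each library, and the gap between the libraries is the only replicate error. No p-value is given. In whole tissue, fewer cells with an open site and a less open site in every cell cannot be told apart.

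Notch receptors are cut after they bind a ligand on a neighbouring cell, and the released intracellular part joins the DNA-binding protein RBPJ and the Mastermind coactivators to switch on genes such as those of the Hes and Hey repressors. In muscle, Notch signalling is known for keeping satellite cells, the muscle stem cells, undifferentiated and quiescent, with Hey1 and Heyl among the targets involved. Dll4, Jag1 and Notch3 are also well known from blood vessels and their mural cells, which run through the same tissue. An open promoter shows that a start site is accessible and does not measure transcription.

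The libraries stood apart in size before any Notch gene was considered. The stricter peak lists held 114758 peaks in replicate 1 and 26804 in replicate 2, covering 21.6 and 6.72 Mb, and 16.7% and 70.3% of them were shared. A peak counts as shared where a peak of the other library covers at least 50% of either one of the pair. Read totals were not used here. Of the 8 skeletal muscle markers, 4 had a promoter peak in replicate 1, 3 in replicate 2 and 2 a shared one. Over all protein-coding genes these shares were 66.7%, 51.4% and 45.1%, so the muscle markers lay below each of them. Des, Tnnt3 and Myh4 had no promoter peak in either library. The summed promoter peak height of single muscle markers ran from 0 to 16.8 in replicate 1 and from 0 to 5.02 in replicate 2. Of the 6 neuronal markers, 6 had a promoter peak in replicate 1 and 4 in replicate 2, with summed heights from 1.67 to 47.0 and from 0 to 2.05. The part of such differences between the libraries in the results below was not tested. Promoter peaks were found at 1 of 6 endothelial and 3 of 6 mural cell markers in each library, at 1 and 2 of 4 satellite cell markers and at 0 of 4 macrophage markers. They were also found at 2 and 1 of 4 Schwann cell markers, and at 2 of 4 fibro-adipogenic cell markers in each library.

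The sequences under the sites that both libraries marked at these genes are shown first, because the results below turn on where those sites lie. All come from the GRCm38 (mm10) reference, 5′ to 3′, and capitals mark the bases that lay inside a footprint of both libraries, a footprint being a short stretch that the authors called as protected from cutting within open chromatin. The first set holds the start regions of 2 receptors, from the RefSeq promoter table of GRCm38, from 250 bases before the start to 30 after it. Notch1 is on chr2:26503793-26504072, minus strand, and Notch2 on chr3:98013288-98013567, plus strand. Of the 10 genes, 7 were matched in that table with 8 windows.
Notch1 promoter: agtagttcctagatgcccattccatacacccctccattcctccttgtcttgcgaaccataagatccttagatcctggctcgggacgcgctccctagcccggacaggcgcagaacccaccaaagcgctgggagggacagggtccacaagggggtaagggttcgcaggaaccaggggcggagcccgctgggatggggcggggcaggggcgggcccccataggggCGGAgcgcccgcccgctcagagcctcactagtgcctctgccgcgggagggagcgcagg
Notch2 promoter: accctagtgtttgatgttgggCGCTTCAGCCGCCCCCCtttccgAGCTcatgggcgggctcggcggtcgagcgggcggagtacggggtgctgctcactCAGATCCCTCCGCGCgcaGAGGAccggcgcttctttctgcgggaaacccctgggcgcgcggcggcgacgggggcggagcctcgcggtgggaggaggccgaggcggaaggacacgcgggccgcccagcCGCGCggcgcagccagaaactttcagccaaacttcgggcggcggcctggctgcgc

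The second set holds peaks within 1 kb of a start site that the libraries shared, on the plus strand of the reference, for a ligand and 2 targets. The Jag1 peak lies upstream of the gene, between genes, on chr2:137117361-137117660. The Hes1 peak lies in an intron of a Hes1 transcript that starts farther upstream and 40 bases from a later start site, on chr16:30065101-30065300. The Hey1 peak lies upstream of its gene on chr3:8667621-8667800.
Jag1 upstream peak: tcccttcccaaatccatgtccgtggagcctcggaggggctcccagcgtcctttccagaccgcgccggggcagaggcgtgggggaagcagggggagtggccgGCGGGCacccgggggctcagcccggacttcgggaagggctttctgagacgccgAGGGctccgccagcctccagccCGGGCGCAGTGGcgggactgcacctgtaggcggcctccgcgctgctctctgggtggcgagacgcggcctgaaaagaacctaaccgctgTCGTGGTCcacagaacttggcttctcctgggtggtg
Hes1 inner start peak: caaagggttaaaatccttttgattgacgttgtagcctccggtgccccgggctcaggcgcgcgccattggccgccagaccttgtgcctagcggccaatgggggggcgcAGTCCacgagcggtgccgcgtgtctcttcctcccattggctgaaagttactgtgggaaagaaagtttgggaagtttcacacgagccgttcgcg
Hey1 upstream peak: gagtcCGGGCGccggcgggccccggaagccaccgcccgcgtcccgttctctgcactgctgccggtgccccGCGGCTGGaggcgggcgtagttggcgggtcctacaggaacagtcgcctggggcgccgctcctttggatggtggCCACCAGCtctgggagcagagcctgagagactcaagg

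The third set holds all 7 distal peaks that the libraries shared, where a distal peak lies over 1 kb from every start site and within 50 kb of a start site of the gene. They are printed on the plus strand, as the peak of replicate 1. Their positions are chr17:32143261-32143480 (Notch3), chr2:119338061-119338260 (Dll4), chr2:137114241-137114500 (Jag1), chr12:112875661-112875840 and chr12:112955941-112956140 (Jag2), chr3:8664621-8664800 (Hey1) and chr4:123219801-123220000 (Heyl).
Notch3 coding exon: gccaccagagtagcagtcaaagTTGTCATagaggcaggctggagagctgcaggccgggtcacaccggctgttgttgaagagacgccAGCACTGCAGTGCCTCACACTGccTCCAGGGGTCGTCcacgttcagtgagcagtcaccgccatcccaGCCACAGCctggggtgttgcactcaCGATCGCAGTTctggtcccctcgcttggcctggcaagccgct
Dll4 past the gene: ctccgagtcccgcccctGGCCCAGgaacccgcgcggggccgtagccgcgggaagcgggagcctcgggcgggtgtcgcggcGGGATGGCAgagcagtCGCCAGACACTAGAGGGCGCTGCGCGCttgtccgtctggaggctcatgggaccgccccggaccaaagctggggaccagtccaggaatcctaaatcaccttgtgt
Jag1 intron: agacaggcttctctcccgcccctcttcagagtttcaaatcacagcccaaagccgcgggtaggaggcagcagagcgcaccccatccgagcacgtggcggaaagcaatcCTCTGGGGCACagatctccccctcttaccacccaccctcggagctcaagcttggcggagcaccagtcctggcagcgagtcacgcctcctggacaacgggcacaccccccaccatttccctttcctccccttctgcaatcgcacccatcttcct
Jag2 past the gene: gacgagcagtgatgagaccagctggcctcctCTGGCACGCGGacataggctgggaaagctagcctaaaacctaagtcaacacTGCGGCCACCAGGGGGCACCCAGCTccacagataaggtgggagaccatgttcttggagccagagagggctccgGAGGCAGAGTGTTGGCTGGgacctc
Jag2 upstream: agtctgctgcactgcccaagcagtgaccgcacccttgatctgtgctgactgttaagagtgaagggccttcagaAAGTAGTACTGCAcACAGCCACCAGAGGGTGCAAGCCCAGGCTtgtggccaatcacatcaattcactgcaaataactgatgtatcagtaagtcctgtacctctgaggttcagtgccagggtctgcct
Hey1 coding exon: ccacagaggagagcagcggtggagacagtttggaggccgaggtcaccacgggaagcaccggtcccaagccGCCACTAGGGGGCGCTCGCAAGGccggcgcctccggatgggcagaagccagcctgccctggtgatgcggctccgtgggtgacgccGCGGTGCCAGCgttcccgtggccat
Heyl upstream: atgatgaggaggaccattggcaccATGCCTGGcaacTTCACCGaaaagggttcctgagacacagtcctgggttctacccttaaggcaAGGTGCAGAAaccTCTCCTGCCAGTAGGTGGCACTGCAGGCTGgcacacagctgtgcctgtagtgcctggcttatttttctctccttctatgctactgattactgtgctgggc

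The first question was which of these genes had open chromatin at a start site. In replicate 1, 9 of the 10 genes had a promoter peak, a peak within 1 kb of any annotated transcription start site (TSS), against 66.7% of all protein-coding genes. In replicate 2, 7 of 10 did, against 51.4% of all genes. The gene without a promoter peak in either library was Heyl, which it had in common with 32.9% of all genes, and Notch3 and Dll4 had one in replicate 1 alone, a pattern of 15.7% of all genes. A shared promoter peak was present at 5 of 10 genes, Notch2, Dll1, Jag1, Hes1 and Hey1, against 45.1% of all genes, so that share lay near the background. Both libraries called some promoter peak at 7 of 10 genes, against 51.0% of all genes, and of these 7 Notch1 and Jag2 had peaks that were not shared. Among all genes with a promoter peak in each library, 88.3% shared one. The 10 genes had a median of 3.5 start sites, against 3 over all genes.

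Peak height is the authors' signal value of each peak, here taken as normalized to read depth because the heights were whole multiples of 1 step, 0.00597 in replicate 1 and 0.0107 in replicate 2. The scales of the libraries need not be the same, so heights are ranked within a library. Over the genes with a promoter peak, the median of the tallest promoter peak was 6.30 for all genes and 3.69 for the 9 Notch genes in replicate 1. In replicate 2 it was 2.03 for all genes and 2.02 for the 7 Notch genes.

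**Figure D1:**
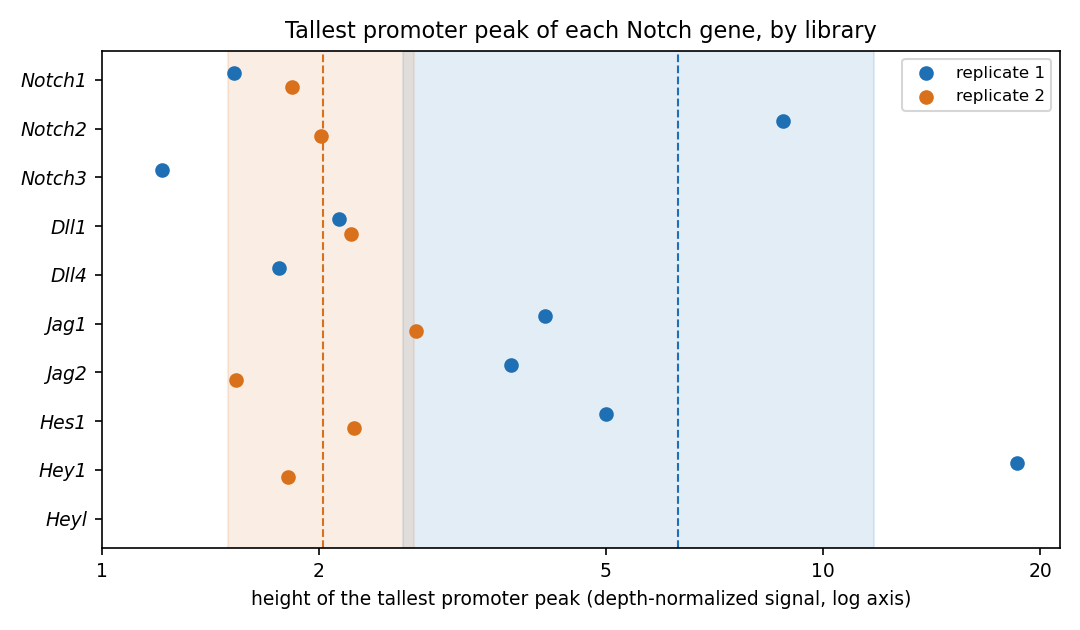
The height of the tallest promoter peak (signal, log axis) of each gene is plotted as 1 point per library, with no point where there was no promoter peak. Dashed lines and bands give the median and the middle 50% of all genes with a promoter peak, and the replicate 1 values spread from 1.21 at Notch3 to 18.6 at Hey1 while those of replicate 2 stay between 1.53 and 2.72.

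Among Notch1, Notch2 and Notch3, Notch2 had the tallest promoter peak in each library. Notch2, a receptor of satellite cells, reached 8.81 in replicate 1 and 2.02 in replicate 2. These heights were above 63.0% and 49.7% of the tallest promoter peaks of other genes in the same library. Among genes with a promoter peak, Notch2 therefore sat near the middle in both. Genes without a promoter peak are left out of these shares and of the shares of genes given with heights below. The 2 tallest peaks overlapped by 60 bases only, at chr3:98013341-98013540 and chr3:98013139-98013400. A second pair of Notch2 peaks was shared, 1.28 in replicate 1 and 1.73 in replicate 2, and began 483 and 103 bases past the nearest start.

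Notch1, a receptor used in many tissues, had a tallest promoter peak of 1.53 in replicate 1 and 1.83 in replicate 2. That was above 15.4% and 41.1% of genes. Both peaks lay about the start in the RefSeq window printed above, at chr2:26503701-26503925 and chr2:26503916-26504020, and overlapped by 10 bases. Their middles were 12850 and 12695 bases downstream of the gene start in GENCODE M21, which itself had no peak in either library, so the gene counts as having no promoter peak in either where the gene start alone is used. With gene starts alone, 8 and 5 of the 10 genes had a promoter peak, against 62.0% and 47.4% of all genes. The gene nearest to Notch1 over 4 values (summed promoter peak height and number of distal peaks in each library, both as log2 of the value plus 1) was Cd2, a T cell surface protein, at a Euclidean distance of 0.180. Acads, Dennd3, Espn and Hmox1 followed, at up to 0.282.

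Notch3, a receptor of vascular mural cells, had 3 promoter peaks in replicate 1 and none in replicate 2. The tallest, over the start, was 1.21 high and above 11.7% of genes. No base within 1 kb of its start sites had a false discovery rate (FDR) under 0.05 in the interval file of replicate 2, and 586 of 6003 bases were under 0.001 in replicate 1. Replicate 2 therefore called nothing at these starts, even at the looser level.

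The tallest promoter peak of each ligand in replicate 1 was lower than that of most genes with a promoter peak. Dll1 had promoter peak heights of 2.13 in replicate 1 and 2.22 in replicate 2, above 21.1% and 58.6% of genes, in a shared pair that overlapped by 267 bases. That pair lies at an inner start, and the peak 109 bases from the outer start, 1.48 high, was called in replicate 1 alone. Jag1 had heights of 4.11 and 2.72, above 35.9% and 75.3% of genes. Its tallest peaks abutted with no overlap, at chr2:137116681-137116880 and chr2:137116881-137116980. A shared pair farther upstream was 2.24 and 2.54 high. Its peak of replicate 1, printed above, held 5 footprints of each library, and its wider peak of replicate 2 held 7 of replicate 2.

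Dll4 and Jag2, the ligands without a shared promoter peak, differed from each other in replicate 2. Dll4, an endothelial ligand, had 5 promoter peaks in replicate 1, the tallest 1.76 in a coding exon 298 bases from an inner start, and none in replicate 2. The Dll4 peak nearest to the gene start, 49 bases away, was 0.943 high. No base around its start sites had an FDR under 0.05 in replicate 2. Jag2 had heights of 3.69 and 1.53, above 32.8% and 26.8% of genes. The tallest Jag2 peak of replicate 1 lay over a coding exon 52 bases from an inner start, and another of 2.41 lay on the gene start. The only Jag2 promoter peak of replicate 2 lay 3320 bases from the tallest of replicate 1, at chr12:112916961-112917020, near a start that belongs to no protein-coding transcript.

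The targets held the tallest promoter peak of the 10 genes in replicate 1, that of Hey1, and the gene with none in either library, Heyl. In replicate 2 the tallest was that of the ligand Jag1. Hey1, a repressor downstream of the receptors, had a tallest promoter peak of 18.6 in replicate 1 and 1.81 in replicate 2. These heights were above 92.3% and 40.1% of genes, so the rank of Hey1 differed between the libraries more than that of any other of the 7 genes with both values. The 2 peaks abutted, at chr3:8667021-8667220 and chr3:8666755-8667020. The shared Hey1 peak upstream, printed above, was 3.65 and 1.48 high and held 3 footprints of replicate 1 and 4 of replicate 2.

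Hes1, the classic Notch target, had the most promoter peaks of the 10 genes. There were 6 in replicate 1 and 8 in replicate 2, and all of them were shared. At least 6 shared ones were seen at 0.114% of all genes. At least 6 promoter peaks were found at 2.28% of all genes in replicate 1 and 0.433% in replicate 2. With overlapping peaks of 1 list merged, 5 remained in each library, and at least 5 in each library was seen at 0.342% of genes. Counted from the gene start, their middles ran from base -994 to 2796 in replicate 1 and from base -1084 to 2905 in replicate 2, so they lay both before the start and along the gene. The last ended at base 30067280 in replicate 1 and 30067397 in replicate 2, before the gene end at 30067796. The heights were 1.10 to 5.01 in replicate 1 and 1.38 to 2.24 in replicate 2, with the tallest above 41.9% and 59.6% of genes. With all start sites and a 1 kb window, Hes1 therefore stood out by the number of its peaks and not by their height. That number depended on the start sites and window used. It was 4 in each library from the gene start alone, and 3 and 4 from protein-coding transcripts or with a 0.5 kb window. The shares of all genes at those settings were not computed.

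The peaks of Hes1 that were tallest differed between the libraries. In replicate 1 the tallest lay in a coding exon towards the end of the gene, at chr16:30067081-30067280, where replicate 2 had 1.83. In replicate 2 the tallest lay at the inner start, at chr16:30065181-30065401, where the peak of replicate 1 printed above was 4.36 high. The gene nearest to Hes1 in the 4 values was Myc, the growth-promoting transcription factor, at a distance of 0.606, followed by Hnrnpf, Sfpq, Mboat7 and Tsen34 at up to 0.704. Myc had summed promoter peak heights of 11.8 and 10.6, against 15.9 and 13.6 for Hes1.

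Heyl, the remaining target, had no promoter peak in the stricter lists of either library. In the longer lists, which hold 189128 and 46786 peaks, it had 3 promoter peaks in replicate 1 and 4 in replicate 2. The tallest were 0.573 and 1.25 high, and a pair was shared. Promoter peaks were present at 71.1% and 59.7% of all genes in the longer lists. The Heyl starts were thus marked in the longer lists of both libraries and in neither stricter list.

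The interval files, which give an FDR along the genome for each library, show how far open chromatin extended without regard to peak borders. Every peak of the stricter lists held a base with an FDR under 0.001. Within 1 kb of its start sites, 10 of the 10 genes had such a base in replicate 1 and 8 of 10 in replicate 2, against 67.3% and 52.9% of all genes. The median gene had 12.1% of these bases under 0.001 in replicate 1 and 1.89% in replicate 2.

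**Figure D2:**
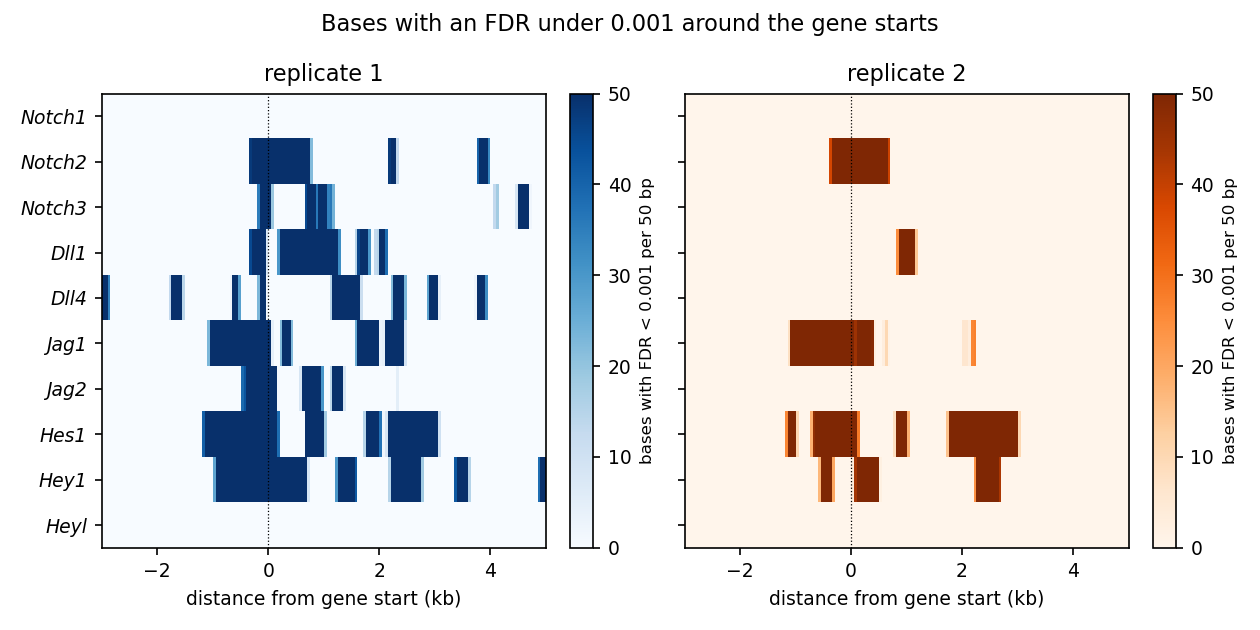
Each row is 1 gene and each column 50 bp of the 3 kb before to 5 kb after its annotated gene start (distance in kb, in the direction of transcription), and the shade counts bases with an FDR under 0.001 from 0 to 50. Notch2, Jag1, Hes1 and Hey1 are covered about the start in both libraries, Notch3 and Dll4 in replicate 1 alone, and Notch1 and Heyl in neither, since the open Notch1 start lies outside the plotted range.

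Hes1 had 67.6% of the bases within 1 kb of its start sites under an FDR of 0.001 in replicate 1 and 58.1% in replicate 2. Only 2.35% and 1.10% of all genes had a larger share. Notch2 followed the same course, with 55.7% and 53.5%. Jag1 had 31.2% and 35.2%, both above the third quartile of all genes, which was 26.2% and 13.8%. These 3 genes held near-equal shares in libraries whose peak numbers differed several times over.

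Hey1 was covered unequally, with 78.2% in replicate 1 and 26.1% in replicate 2, although both lay above the third quartile. Dll1 had 20.7% and 3.85%, Jag2 had 13.7% and 3.06%, and Notch1 had 2.85% and 1.75%. These shares depend on the window length, which ran from 2012 bases at Notch2 to 12206 at Notch1. In bases under 0.001, Dll1 (1821) and Jag2 (1530) were above Notch2 (1120) and Jag1 (1248) in replicate 1. In replicate 2 they were below, with 339 and 343 against 1077 and 1410. Notch3 and Dll4 had 9.76% and 17.2% in replicate 1 and 0 in replicate 2. Heyl had 14 and 49 bases under 0.001, with a lowest FDR of 0.000713 and 0.000523, and 13.9% and 18.0% of its bases under 0.05.

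The intervals also bear on the pairs of tallest peaks that just missed each other. Replicate 2 had an FDR under 0.001 over 100% of the tallest Notch2 and Jag1 promoter peaks of replicate 1 and over 91.5% of that of Hey1. At those 3 genes the same bases were marked by both libraries, with the peak borders placed differently. It covered 1.78% of the Notch1 peak, and none of the Jag2 peak. Among all genes with a promoter peak in each library, the tallest peak of replicate 1 was shared at 78.3%.

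Peak number differs between the lists, so each list was also limited to its 26804 tallest peaks. Then 5 of the 10 genes had a promoter peak in replicate 1, namely Notch2, Jag1, Jag2, Hes1 and Hey1, against 49.6% of all genes. A shared promoter peak was left at Hes1 and Hey1, 2 of 10 genes, against 37.5% of all genes. The promoter peaks of Notch1, Notch3, Dll1 and Dll4 in replicate 1 were all lower than the peaks kept. With at least 50% of both peaks required, Jag1, Hes1 and Hey1 were left, 3 of 10 against 26.6%.

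Away from the starts, the second question was where distal peaks lay. The 10 genes had 79 distinct distal peaks in replicate 1 and 11 in replicate 2, of which 7 were shared in each. A distal peak was present at 10 of 10 genes in replicate 1 and 8 of 10 in replicate 2, against 84.0% and 40.1% of all genes. The mean per gene was 7.90 in replicate 1 and 1.10 in replicate 2, against 4.93 and 0.826 over all genes. More than 10 distal peaks were found in replicate 1 at Notch1 and Notch3, with 12 each, and at Notch2 and Dll4, with 11 each, so at 4 of 10 genes against 11.4%. Of the 79 peaks, 31 lay inside one of these genes and 58 had one of them as the nearest start.

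**Figure D3:**
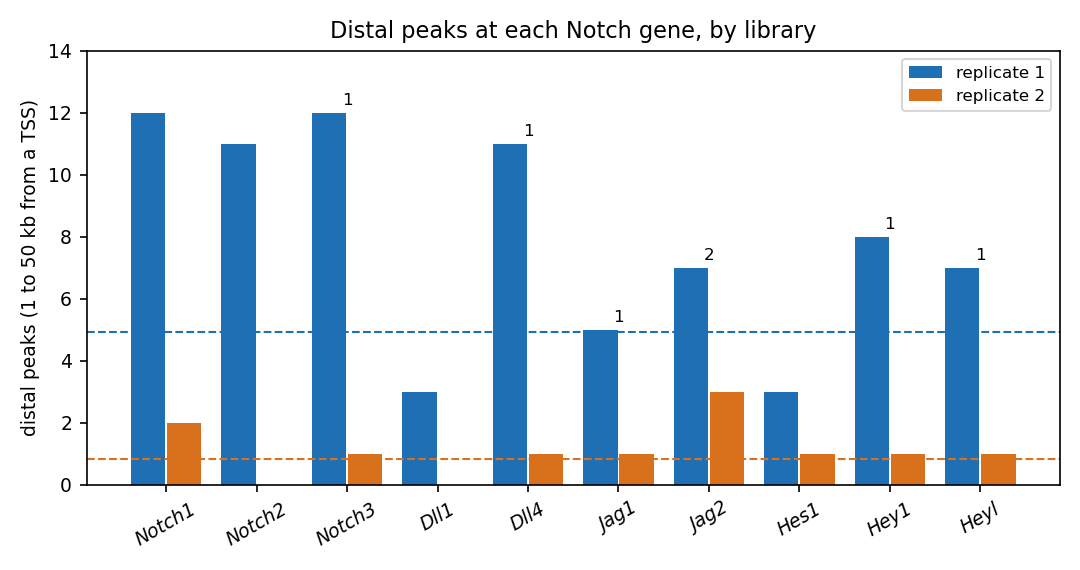
Bars count the distal peaks (1 to 50 kb away from start sites, as defined above) of each gene in replicate 1 and replicate 2, and dashed lines are the means over all protein-coding genes, 4.93 and 0.826. The number above a pair of bars counts the shared peaks, 2 at Jag2 and 1 each at Notch3, Dll4, Jag1, Hey1 and Heyl.

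A shared distal peak was present at 6 of 10 genes, against 35.5% of all genes. The 6 were Notch3, Dll4, Jag1, Jag2, Hey1 and Heyl, so they included all 3 genes that lacked a promoter peak in replicate 2. With at least 50% of both peaks required, 3 of 10 were left, Notch3, Jag2 and Heyl, against 30.5%.

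Among the receptors, Notch3 had a shared distal peak in one of its coding exons, 3.88 high in replicate 1 and 2.58 in replicate 2. These heights exceeded 84.0% and 86.1% of all peaks of their library, while its start was not called in replicate 2. Its tallest distal peak of replicate 1, 4.49, lay in another coding exon, 1405 bases from the nearest start. Notch1 had 12 distal peaks in replicate 1 and 2 in replicate 2, none shared, and the tallest of replicate 1, 5.24, lay past the gene with Sec16a as the nearest start. Notch2 had 11 in replicate 1 and none in replicate 2, the tallest 1.65 in an intron.

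Among the ligands, Dll4 had a shared peak past its gene, 12376 bases from the gene start, of height 4.67 and 2.26. The peak of replicate 2 was 28 bases wide, although 112 of the 200 bases of the peak of replicate 1 had an FDR under 0.001 in replicate 2. The tallest distal peak of Dll4 in replicate 1, 6.38, lay closer to the start of Chac1. Jag2 had 2 shared peaks, one past the gene with 8.31 and 3.08 and one upstream with 3.02 and 2.26. Both were nearer to another gene's start, that of Gpr132 and that of Brf1. Jag1 had a shared intron peak of 1.68 and 1.93, and Dll1 had 3 distal peaks in replicate 1, the tallest 2.18, and none in replicate 2.

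Among the targets, Hey1 had a shared peak in a coding exon 1825 bases from the nearest start, 9.64 high in replicate 1 and 2.55 in replicate 2. They exceeded 95.2% and 85.5% of all peaks of their library. Heyl had a shared peak upstream, with its middle at -13656 bases from the gene start, of height 3.68 and 1.48. Its tallest distal peak, 8.25, lay over the 3′ end of the gene and was called in replicate 1 alone. Hes1 had 3 distal peaks in replicate 1 and 1 in replicate 2. A pair of these, 2.04 and 1.64 high, overlapped by 124 bases, under the 50% required, with middles 6166 and 6388 bases past the gene start.

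**Figure D4:**
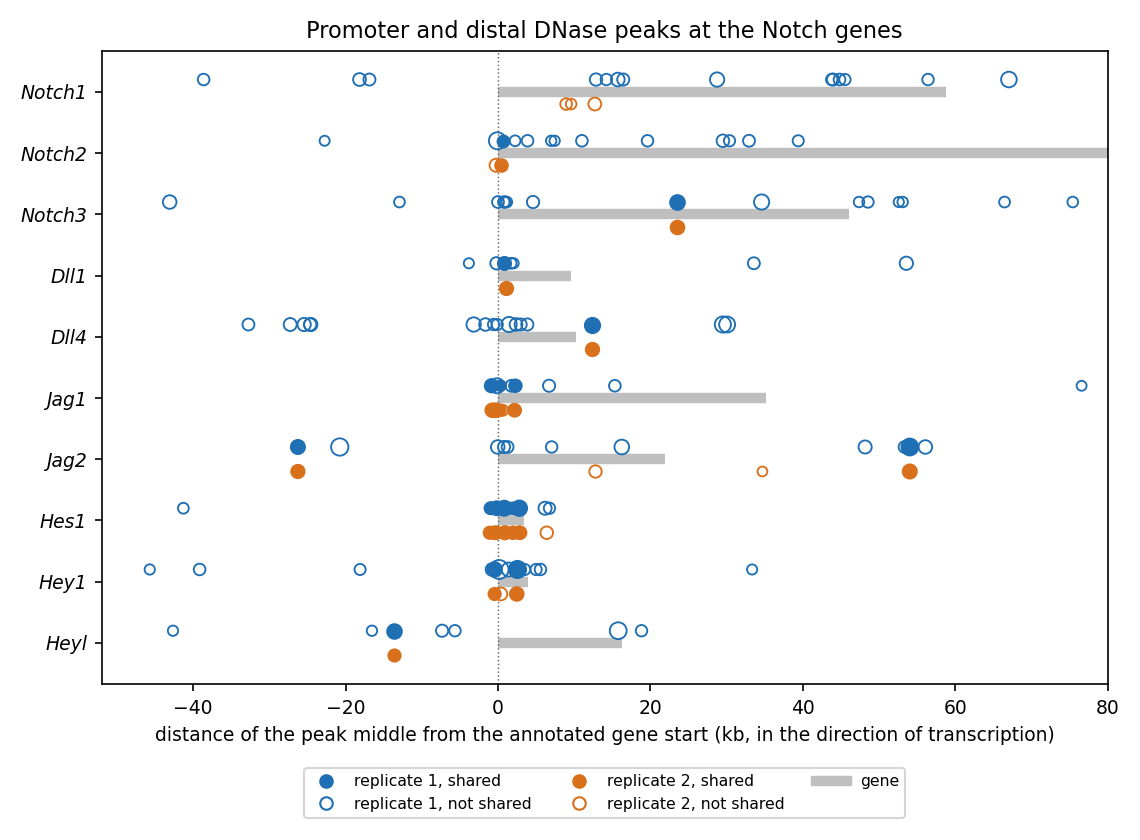
Promoter and distal peaks of each gene are placed by the distance of their middle from the annotated gene start (kb, in the direction of transcription), with replicate 1 above and replicate 2 below the gene bar and larger symbols for taller peaks. Filled symbols are shared, and they gather about the start of Hes1 and Jag1 but lie away from it at Notch3, Dll4, Jag2 and Heyl.

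Footprints were counted within 1 kb of any start site, so the windows differed in length, from 2012 bases at Notch2 to 12206 at Notch1. The 10 genes had a median of 14.5 footprints in replicate 1 and 7 in replicate 2, against 6 and 3 over all genes. Hey1 and Jag2 had 27 each in replicate 1, in windows of 2632 and 11206 bases, and 12 and 6 in replicate 2. Hes1 was the gene with the most in replicate 2, 22, beside 23 in replicate 1. Notch3 and Dll4 had 9 and 19 in replicate 1 and 0 in replicate 2. All footprints carry the same score in the files, so they could not be ranked.

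The sequences were searched on both strands for letters known for factors of this pathway and of muscle. RBPJ letters were TGGGAA, or the longer GTGGGAA, which contains them. The RefSeq promoter windows covered the receptors and ligands and none of the targets Hes1, Hey1 and Heyl. Each form was in 0 of these 8 windows, where 25.6% of 32851 windows held TGGGAA and 6.38% held the longer form. The longer form was found in peaks at Hes1. In the inner start peak of Hes1, GTGGGAA stood at bases 159 to 165 and a further TGGGAA at bases 174 to 179, both on the plus strand. None of these bases lay inside a footprint of either library. Among peaks within 1 kb of a start that the libraries shared, 4.81% held the longer form.

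In a window of 150 bp about the peak middle, 7 of the 79 distal peaks of replicate 1 held GTGGGAA, against 3.63% of all its peaks. At 1 of these, a Notch1 peak 63 bp wide, the letters lay in the window but not wholly inside the peak. In replicate 2, 0 of the 11 distal peaks held them, against 3.29% of all its peaks. None of the 7 shared distal peaks printed above held it. The letters CACGCG, bound by Hes and Hey proteins, were in 5 of 8 promoter windows (those of Notch2, Dll4, Jag1, Jag2 and a window of Dll1), against 9.27% of all windows. The letters hold CpG pairs, and the 8 windows had a ratio of observed to expected CpG between 0.595 and 1.14, against a median of 0.384 over all windows. The part of CpG content in that count was not tested. The other letters searched for Hes and Hey proteins, CACGTG, were in 0 of 8 windows, against 7.15% of all windows. The MyoD E-box CAGCTG was in 2 of 8 windows and in 16.3% of all windows, and the MEF2 motif was in 0 of 8 and in 3.69%.

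After the sequences had been seen, the core motif of CTCF was added, CTCF being the factor known for insulators and chromatin loops. Its letters occurred in 4 of the 7 shared distal peaks, at Dll4 (bases 104 to 114), Jag2 past the gene (89 to 99), Hey1 (73 to 83) and Heyl (109 to 119). In each of the 4, all 11 bases lay inside footprints of both libraries. Over all genes, 40.2% of 5220 shared peaks at 1 to 50 kb from a start held the letters, as did 16.2% of 48053 that were not shared. The count at the Notch genes is thus near that of shared distal peaks in general.

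The other genes of the pathway were taken from a list of 49, covering further receptors, ligands, RBPJ and its cofactors, Hes and Hey genes, proteases, glycosyltransferases and ubiquitin ligases. That list was fixed with earlier results of these data known. A promoter peak was present at 47 of 49 in replicate 1 and at 38 in replicate 2, and a shared one at 32 (65.3%), against 66.7%, 51.4% and 45.1% of all genes. Only Hes3 had none in either library. The median tallest promoter peak of the list was 8.46 in replicate 1 and 2.01 in replicate 2, beside 3.69 and 2.02 for the 9 and 7 of the 10 genes with one, and 6.30 and 2.03 for all genes.

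The 10 genes of this list that the naming rule took whatever their values fell on both sides of the medians over all genes. Of these, 5 were above both medians, 6.30 in replicate 1 and 2.03 in replicate 2, and had a shared promoter peak. Rbpj, the DNA-binding protein itself, had 18.9 in replicate 1 and 2.72 in replicate 2, and Maml1, a Mastermind coactivator, 15.4 and 2.76. Numb, an inhibitor of the receptors, had 17.7 and 2.18. Hey2, the target related to Hey1, had 18.9 and 2.84, and Notch4, the remaining mammalian receptor, 18.8 and 3.17.

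The other 5 were below a median in at least 1 library or had a promoter peak in 1 library alone. Nrarp, a feedback inhibitor, had 7.81 and 1.54, and Lfng, which adds sugar to the receptors, 3.17 and 2.07, both with a shared peak. Dll3 had 4.89 and Hes5 had 2.10 in replicate 1, with no promoter peak in replicate 2. Dlk1, a non-canonical ligand known from growing muscle, was the only one of the 49 with a promoter peak in replicate 2 alone, 0.654 high, a pattern of 0.46% of all genes.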

How the data were processed

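The 2 libraries of the single group were analysed side by side. Per the deposited text beside each library, the peaks, interval and footprint files were derived from the filtered alignments of that library alone on mm10. For the aligner and the callers of peaks, intervals and footprints, name and version were not given in the sources used here. Both deposited peak lists of a library hold 1 signal value per peak, a height that the authors appear to have scaled to read depth. Of these 2 lists, the one with fewer rows was used. Each deposited interval carries an FDR (the authors' multiple-testing corrected p-value), with 0.05 as the upper limit. The score that the authors deposited for footprints is 0.01 for each, so only positions were used. Files hold no read totals, so depth is known only as far as the spacing of the heights shows it. Mapping of reads from the F1 hybrid to a reference of 1 parental strain could affect sites with sequence differences, and this was not tested.

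Start sites came from all transcripts of 21938 protein-coding genes of GENCODE M21 outside the mitochondrial chromosome. A promoter peak lay within 1 kb of a TSS, and a distal peak over 1 kb from every TSS and within 50 kb of one of its gene. Peaks with at least 50% of either overlapped were shared. A shared peak is counted as that of replicate 1. Sequences came from GRCm38 and RefSeq (counts over the RefSeq promoter windows leave out 1 chromosome, and those over peaks do not). Named were all 10 genes, their tallest and shared peaks, the 5 genes nearest to Hes1 and to Notch1, and 10 pathway genes whatever their values. The genes and lists were chosen with earlier results of these data known. No test was run, as there is 1 group. Overlaps and distances were tested on simulated data and differed from bedtools 2.31.1 or a plain search in 0 of 545 overlaps and 0 of 4387 distances. Analysis used Python 3.11.15, numpy 2.4.6, pandas 2.3.3, pysam 0.24.0 and matplotlib 3.10.9. Alternatives covered the peak list, windows, start sites, overlap, height, merging and leaving out each library.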

Additional observations from a re-analysis of the deposited data

How the results depend on the processing

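The counts of genes with a promoter peak in replicate 2 stayed within 1.5 times the value reported under each alternative run. In the longer peak lists the distal peaks at the 10 genes numbered 134 and 39, and footprints in the peaks of replicate 2 numbered 141. The footprint count under the longer list was an alternative added after seeing the data. Requiring 50% of both peaks left 3 genes with a shared promoter peak, 3 with a shared distal peak and 20 pathway genes with a shared promoter peak. With a promoter window of 0.5 kb the distal peaks of replicate 2 were 19, and with a 100 kb window distal peaks were 134 and 24. Among the 26804 tallest peaks of each library, 5 genes had a promoter peak in replicate 1, 2 a shared promoter peak, and 15 distal peaks were left in replicate 1. Peaks over the median height of their list left 39 and 7 distal peaks. Without either library, the genes counted as shared become those with a peak in the other alone, 7 to 9 for promoter peaks, 8 to 10 for distal peaks and 38 to 47 for pathway promoters. With 2 kb windows the tallest promoter peak in replicate 1 was 4.49 at Notch3 and 4.51 at Dll4, and it was 1.00 at Dll4 from protein-coding transcripts or the gene start alone. With those gene starts alone, Notch1 lost its promoter peak in both libraries and Jag2 in replicate 2. The causes of these shifts were not tested. The other 65 counts stayed within 1.5 times the value reported. The other 72 heights moved by no more than the SD between the 2 raw heights of the gene. At Notch3 and Dll4, with a height in 1 library alone, they did not move at all. The scales of the libraries need not be the same, so that limit was wide where the 2 heights lay far apart. It could not show stability at genes such as Hey1 (18.6 and 1.81), Notch2 (8.81 and 2.02), Hes1 (5.01 and 2.24) and Jag2 (3.69 and 1.53). Within it, the replicate 1 height fell to 2.41 at Jag2 and 4.36 at Hes1 from protein-coding transcripts or the gene start alone. Settings that left a gene without a promoter peak gave no height to compare. Peaks of replicate 1 that held an FDR under 0.001 in replicate 2, an alternative added after seeing the data, gave 6 genes in place of 5. The files give no read totals, so the part of depth in the sites that a library did not call was not tested, and a missing call does not show a closed site. No paired analysis was possible because there is 1 group and no contrast.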
